A study of Caenorhabditis elegans with 4 samples.

Results

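Chromatin immunoprecipitation followed by sequencing (ChIP-seq) of GFP-tagged NHR-2 in Caenorhabditis elegans embryos gave a peak list for each of 2 ChIP libraries and a much shorter combined list. Described here are the peaks that both libraries called but that the combined list did not take in. They were chosen by overlap alone: a peak of the replicate 1 list on a nuclear chromosome counted if it shared at least 1 bp with a replicate 2 peak and no base with a combined peak. Of the 29354 nuclear replicate 1 peaks, 9717 met this rule, 33.1% of the list. They are called left-out shared peaks below. A further 2696 replicate 1 peaks overlapped both other lists (kept shared peaks), and 16911 overlapped neither (unshared peaks). The remaining 30 overlapped a combined peak but no replicate 2 peak. In all, 42.3% of the nuclear replicate 1 peaks overlapped a replicate 2 peak and 9.29% overlapped a combined peak. Counted from the other side, 9685 of 24127 nuclear replicate 2 peaks met the same rule.

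All libraries came from strain OP99, a mixed population of males and hermaphrodites of genotype unc119(ed3) with the integrated transgene wgIs99, which carries nhr-2 with TY1, EGFP and FLAG tags and a copy of unc119. The transgene was brought in by particle bombardment, so the tagged receptor was made from an added gene copy, and a peak at the nhr-2 or unc-119 locus could not be told apart from transgene DNA. Worms were grown at 20 °C and taken as embryos, and 2 input libraries of unprecipitated DNA were made beside the 2 ChIP libraries. The labels do not say whether the replicates were separate cultures, so differences between them may be technical.

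NHR-2 is a nuclear hormone receptor, a class of transcription factor that binds DNA through a zinc-finger domain and whose family is much expanded in nematodes. A peak list from a single ChIP library mixes sites where the protein is held on DNA with places where fragments piled up for other reasons, and the second class grows as the list runs down to weak peaks. The irreproducible discovery rate method, named in the lists together with the peak caller SPP, ranks the peaks of both replicates and keeps those whose ranks hold up in both. In C. elegans the centres of the autosomes are known to hold most of the broadly expressed genes, while the arms are richer in repeats, in heterochromatin marks and in recombination. The X chromosome is more even along its length.

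The left-out shared peaks were mostly weak in both libraries. Peak numbers in these lists run from 1 for the strongest peak. In replicate 1 the left-out peaks had a median number of 13293 (quartiles 6724 and 20946), against 1425.5 for the kept shared peaks and 17292 for the unshared peaks. Their replicate 2 partners, taken as the overlapping peak with most shared bases, had a median number of 11562 (quartiles 6313 and 17501), against 1287.5 for partners of kept peaks. The left-out class therefore lay between the kept and the unshared peaks, and much nearer the unshared. The authors' score, whose scale is not stated, had a median of 0.318 in the left-out peaks and 3.67, its ceiling, in the kept ones. Because the method named for the combined list works on ranks, these values describe the rule and were not tested.

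A minority of the left-out peaks was strong in at least 1 library. In replicate 1, 245 of them (2.52%) stood among the first 2299 peaks, as many peaks as the combined list holds. Those first 2299 held 2282 of the 29354 nuclear peaks. Of these 2282, 1881 were kept and 132 were unshared. The highest score of the list was held by 267 left-out peaks (2.75%), against 70.5% of the kept and 0.846% of the unshared peaks. In replicate 2, 373 (3.84%) had their partner among the first 2299. The same peaks were rarely strong in both. Only 17 were within number 2299 in both lists, 468 (4.82%) within 5000 and 1915 (19.7%) within 10000. No left-out peak was within number 1000 in both. At the other end, 3739 (38.5%) lay beyond number 10000 in both lists. Disagreement ran either way, with 120 peaks within 2299 in replicate 1 and beyond 10000 in replicate 2, and 177 the reverse. Across all 9717 pairs, which are neighbours on shared chromosomes and not independent, Spearman's rho between the peak numbers was 0.16. It was 0.5 in the kept pairs, but pairs strong in both lists were mostly kept, so this contrast is in part fixed by the choice. With the replicate 2 list rotated along the chromosomes, as described below, the mean rho was 0.0001 (range -0.05 to 0.06).

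The passage from kept to left out was gradual, and it followed the weaker of the 2 peak numbers. Where that number was at most 1000, 0 of 695 shared peaks were left out. Between 2001 and 2500 the share left out was 7.11%, between 3001 and 3500 it was 39.3%, and between 4001 and 4500 it was 56.5%. From 9501 to 10000 it reached 92.9%. It did not end there, since 98 peaks whose weaker number was above 20000 were nonetheless kept, of the 3780 shared peaks in that range. The weakest of these by number, on chromosome IV at 14767645 to 14768044, was peak 29374 in replicate 1 but overlapped peak 761 of replicate 2. Kept means only that a combined peak was overlapped, and the 2696 kept peaks outnumbered the 2299 combined peaks. Some of the 98 shared their partner with a stronger kept replicate 1 peak. They need not each stand for a combined peak of their own.

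**Figure D1:**
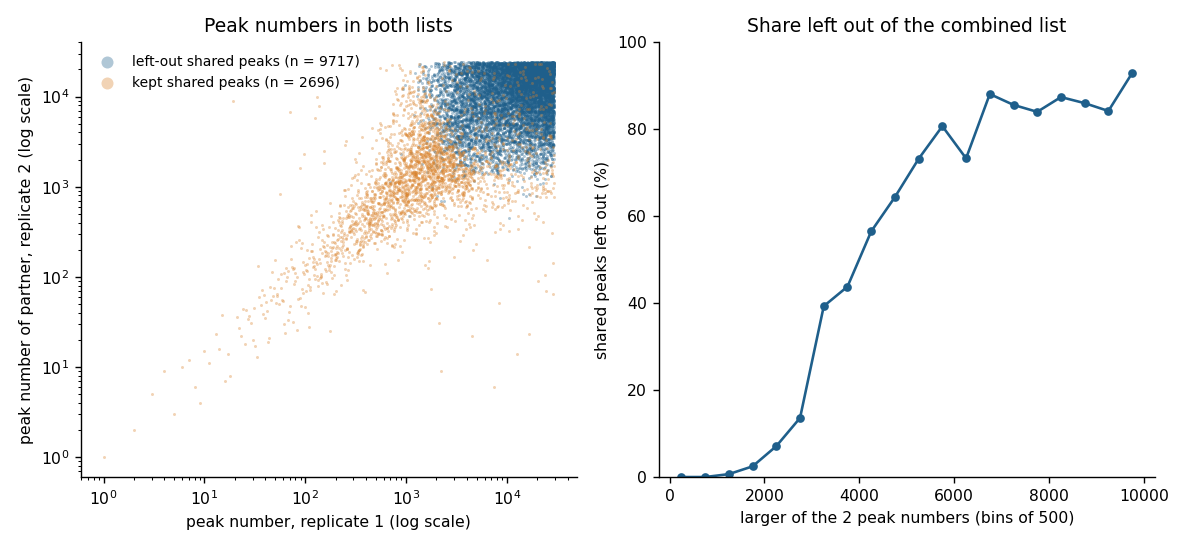
Left, the peak number of each of 12413 shared replicate 1 peaks (x axis) against the number of its replicate 2 partner (y axis), both on log scales, where 1 is the strongest. Right, the percentage of shared peaks left out of the combined list in bins of 500 of the larger number. Kept peaks follow a diagonal from the strongest down, left-out peaks fill the weak corner, and the share left out rises from 0 to 92.9%.

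At the edges of the rule the choice rested on few bases. The smallest overlap with replicate 2 was 1 bp, found for 8 left-out peaks. One was on chromosome V at 215972 to 216371, peak 4812, whose partner, peak 9303 of replicate 2, began on its last base. Just outside, the unshared peak on chromosome II at 7147591 to 7147990 (peak 4419) abutted a replicate 2 peak with a gap of 0 bp. Only 451 left-out peaks shared fewer than 50 bp, and 1674 lay wholly inside their partner. Toward the combined list, the left-out peak with the smallest gap was on chromosome II at 5772802 to 5773201, separated by 1 bp. It was peak 2219 in replicate 1, and its partner was peak 701 in replicate 2. On the other side of that edge, a kept peak on X at 10925899 to 10926298 shared 7 bp with a combined peak. For 40 left-out peaks the partner itself overlapped a combined peak, and these lay a median of 181 bp from it.

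Named by the lowest value of the weaker number, the 10 strongest left-out peaks came from all 6 nuclear chromosomes, and 8 of them lay in the middle 50% of theirs. The first was on chromosome I at 11203187 to 11203361, peak 1057 in replicate 1 and matched to peak 469 of replicate 2. It was 175 bp wide and only 92 bp from a combined peak. Such closeness recurred in a few of the 10. The peak on chromosome III at 6477064 to 6477463 (peaks 1826 and 1001) was 100 bp from a combined peak, and the one on III at 4805288 to 4805687 (peaks 1874 and 1986) was 648 bp away. The peak on I at 13628345 to 13628744 (peaks 1983 and 1757) was 1772 bp away. The others stood farther off.

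Of these others, the peak on chromosome I at 10607759 to 10608158 (peaks 700 and 1126) was 8971 bp from the nearest combined peak. On III, the peak at 6837586 to 6837985 (peaks 1598 and 1452) was 5657 bp away, and on IV the peak at 7580174 to 7580573 (peaks 2022 and 1665) was 5915 bp away. These 3 were isolated by several kilobases. The peak on X at 12230560 to 12230959 (peaks 1742 and 1658) was 41839 bp away, and the one on V at 6513887 to 6514286 (peaks 1438 and 1807) was 28390 bp away. The peak on II at 1736383 to 1736782 (peaks 1871 and 1852) was 21107 bp away, and its partner's centre was 1 bp from its own. All 10 had the top score in replicate 1, but in replicate 2 only the first reached it, the others having scores of 1.05 to 2.82 below a ceiling of 3.30.

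Outside the combined list, the replicates overlapped more often than after 1 list was moved along the chromosomes. The level of unrelated overlap was taken by rotating the replicate 2 list along each chromosome in even steps of 0.1% of its length and applying the rule again. Rotation gave a mean of 5043.8 left-out shared peaks (range 4808 to 5357), which is 51.9% of the 9717 observed. The observed count was thus 1.93 times the rotated mean and 4673.2 peaks above it. With only the replicate 2 peaks outside the combined list rotated, the mean was 4518.2 and the ratio 2.14. Since the rule itself chose peaks on this overlap, the ratio describes the list and no p-value is given. Which of the 9717 peaks belong to the surplus cannot be read from overlap alone.

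The ratio of observed to rotated overlap fell with peak number, except at the top of the list, where few peaks were left out. Among replicate 1 peaks outside the combined list, rotation gave an overlap of 18.8% to 19.0% in each range of peak number from 1001 on. The observed overlap was 64.9% at numbers 1001 to 2500, 62.0% at 2501 to 5000 and 42.8% at 5001 to 10000. It then fell to 35.2%, 31.7% and, beyond 20000, 29.1%. In every one of these ranges the observed count exceeded the highest of the rotations. Taken by the weaker of the 2 numbers, the ratio of observed to rotated was highest at 2501 to 5000, where 441 left-out peaks stood against a rotated mean of 89.5, a ratio of 4.93. It was 3.05 at 5001 to 10000 (1447 against 475), 2.11 at 10001 to 15000 and 1.58 beyond 20000 (3682 against 2336.2). At 1001 to 2500 it was 2.85, from only 27 left-out peaks against a mean of 9.46. By replicate 1 number alone, the first 1000 held 4 left-out peaks against a mean of 1.56.

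**Figure D2:**
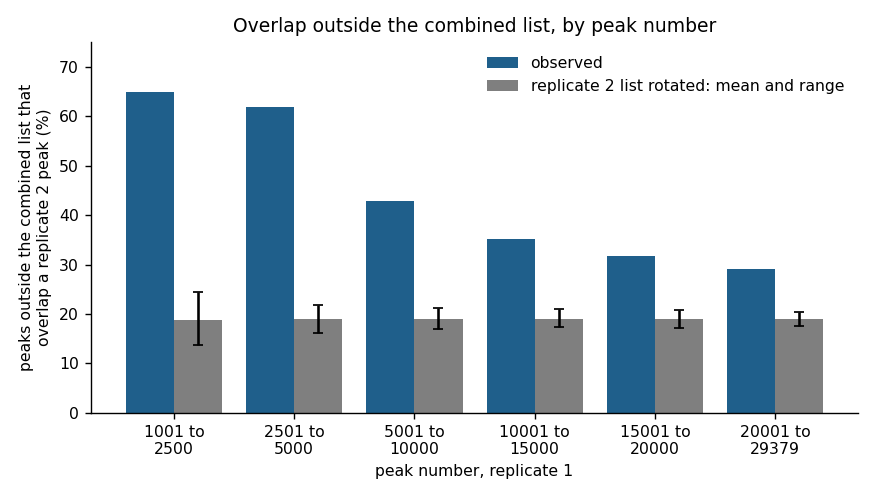
Percentage of replicate 1 peaks outside the combined list that overlap a replicate 2 peak (y axis) by replicate 1 peak number (x axis). Blue bars are observed and grey bars the mean after rotation of the replicate 2 list, with whiskers from the lowest to the highest rotation. The observed share falls from 64.9% to 29.1% while the rotated share stays near 19.0%.

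How well the partners lined up was only partly set by the rule, which asked for any shared base. The distance between centres comes from the same overlaps that chose the peaks, and the rule caps it. Taking the partner with most shared bases also favours short distances. Rotated pairs were formed under the same rule and the same choice of partner. The distances are a description and were not tested. Almost all left-out peaks had the fixed width of their list, 9715 of them 400 bp, with partners of 470 bp. A chance overlap of such intervals can place the centres anywhere up to 434 bp apart. The median distance between the centres of partners was 126 bp in the left-out peaks (quartiles 55 and 244), against 38 bp in the kept peaks (quartiles 15 and 79) and a mean of 204 bp after rotation (range 194 to 215). The centres were within 100 bp for 42.7% of the left-out pairs, 81.9% of the kept pairs and 26.0% of the rotated ones (range 24.3% to 27.7%). Counted from replicate 2, 42.8% of left-out pairs were within 100 bp. The left-out pairs thus lay outside the range of rotation and well short of the kept pairs.

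Alignment followed strength, with an exception at the top. Among left-out peaks whose weaker number was 2501 to 5000, 55.6% had centres within 100 bp of each other, and the share fell to 51.2% at 5001 to 10000, 44.4% at 10001 to 15000 and 39.1% beyond 20000. Kept peaks of the same ranges were aligned more often, with 81.1% at 2501 to 5000 and 43.9% beyond 20000. The exception was the 27 left-out peaks with weaker numbers of 1001 to 2500. Only 22.2% of them had centres within 100 bp, against 87.0% of the 808 kept peaks in that range, and their median distance was 244 bp. Of the 17 left-out peaks within number 2299 in both lists, 13 had centres more than 100 bp apart and 8 had a combined peak within 2 kb. Of the 1409 kept peaks within the same limit, 103 (7.31%) were more than 100 bp apart. The part of this misalignment in their omission was not tested.

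**Figure D3:**
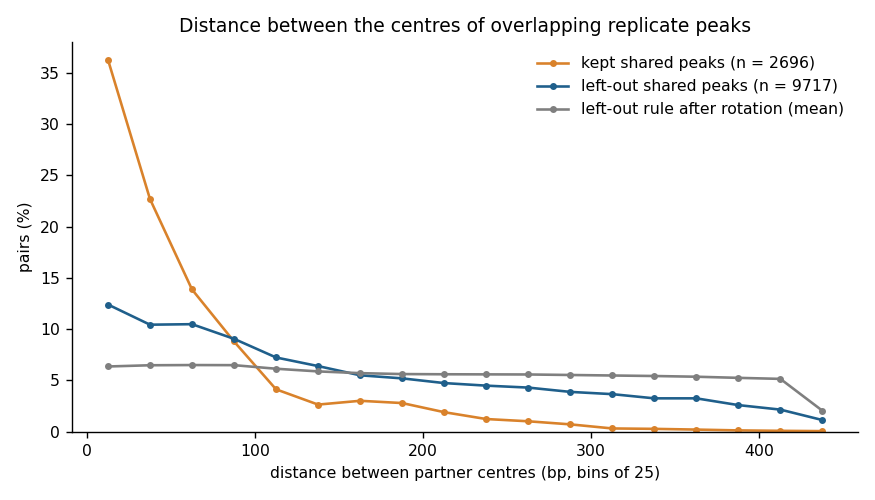
Distance between the centres of overlapping replicate 1 and replicate 2 peaks (x axis, bp, bins of 25) and the percentage of pairs in each bin (y axis). Kept pairs gather near 0, pairs formed by rotation are spread almost evenly, and left-out pairs lie between, with 12.4% in the first bin against 36.3% of kept pairs and 6.35% after rotation.

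Along the chromosomes, the left-out shared peaks leaned toward the ends, where the kept peaks leaned toward the centre. Of the 9717 left-out peaks, 4345 lay in the middle 50% of their chromosome, 44.7% (exact 95% interval 43.7 to 45.7%, for counting error only, taking peaks as independent), against 56.9% of the kept peaks. Counted as replicate 2 peaks the shares were 44.5% and 56.9%, so that the left-out peaks gave 44.6% ± 0.12 (SD, n = 2). Both counts rest on the same overlapping pairs and are not independent. The share was lower in left-out than in kept peaks on 6 of 6 chromosomes in both replicates. In replicate 1 the gap was widest on V, with 45.0% against 62.5%, and on III, with 46.1% against 62.9%. On II the shares were 44.7% and 60.9%. X differed least, at 44.4% against 49.4%. In replicate 2 the gap was widest on III, with 45.9% against 64.8%. Chromosome IV had the lowest middle share of left-out peaks, 39.7%, with 32.5% in its first 25% and 27.8% in its last.

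Against the unshared peaks, the lean went opposite ways in the 2 libraries. In replicate 1 the unshared peaks were at 49.5% in the middle, above the left-out peaks on 6 of 6 chromosomes. In replicate 2 they were at 41.9%, and the left-out peaks were lower on only 1 of 6. Rotation gave a mean middle share of 47.7% with a range of 40.0% to 55.0% that includes the observed value. Over all its steps, rotation spreads the replicate 2 peaks evenly along each chromosome. The mean thus reflects where the replicate 1 peaks outside the combined list lie, and not where both lists are dense. The ratio of observed to rotated counts was 2.04 outside the middle 50% and 1.81 inside it. It was higher outside on 6 of 6 chromosomes, with ratios of 2.45 and 2.06 on V and of 1.80 and 1.78 on III. In replicate 2, left-out and unshared peaks had 44.5% and 41.9% in the middle, a lean that the rotated mean levels out. These ratios therefore cannot tell position apart from the density of the replicate 2 list, and their difference was not tested.

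Position changed with strength. Left-out peaks whose weaker number was 2501 to 5000 had 56.5% in the middle (exact 95% interval 51.7 to 61.1%), close to the 55.6% of kept peaks in that range. The share fell to 51.3% at 5001 to 10000, 46.2% at 10001 to 15000, 43.8% at 15001 to 20000 and 40.5% (38.9 to 42.1%) beyond 20000. Kept peaks did not follow this fall, with 60.2% of the 98 beyond 20000 in the middle. Some of those 98 shared their partner with a stronger replicate 1 peak. Split at number 10000, the 1915 left-out peaks within it in both lists had 52.6% in the middle and the other 7802 had 42.8%. The stronger group had the higher share on 6 of 6 chromosomes, with the smallest difference on I (51.8% against 47.0%) and the largest on II (56.4% against 41.6%). The unshared peaks of replicate 1 also fell with rank, from 56.0% at 2501 to 5000 to 47.8% beyond 20000, while those of replicate 2 went from 41.4% to 40.6%.

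**Figure D4:**
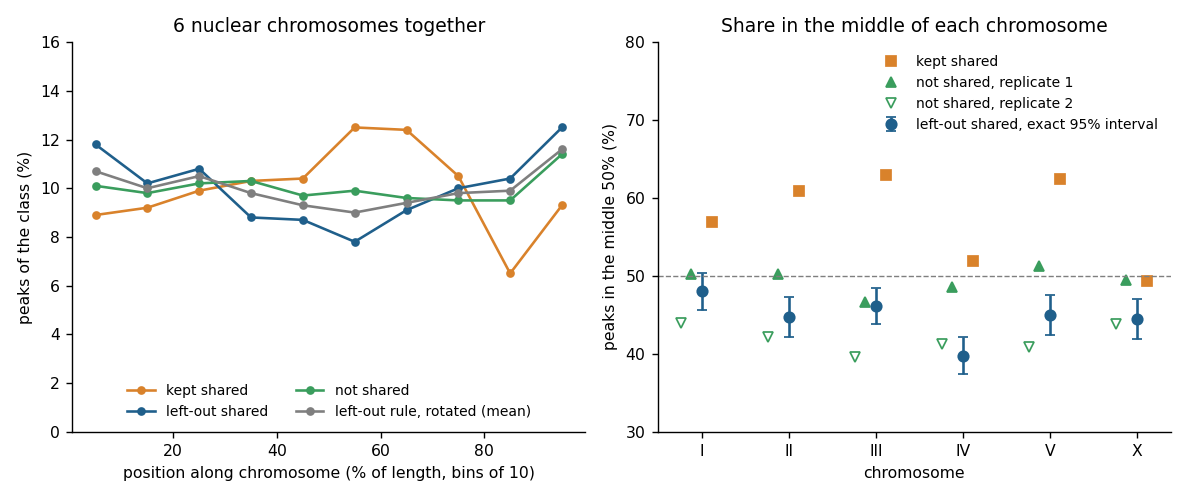
Left, percentage of each class of replicate 1 peaks (y axis) in bins of 10% of chromosome length (x axis), with the mean after rotation in grey. Right, percentage in the middle 50% of each chromosome, for left-out (circles, with exact 95% intervals), kept (squares) and unshared peaks (triangles, pointing down for replicate 2), with a dashed line at 50%. Left-out peaks are sparsest at 50 to 60% of the length (7.8%) and most frequent in the last 10% (12.5%), and they lie below the kept peaks on every chromosome.

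By chromosome, left-out shared peaks were densest on III (130.0 per Mb, 1786 peaks) and I (121 per Mb, 1818 peaks) and sparsest on V (68.3 per Mb, 1430 peaks). Chromosomes IV (96.2 per Mb), II (95.1) and X (87.4) lay between. Unshared replicate 1 peaks were likewise densest on III (186 per Mb) and I (184) and sparsest on V (142). The place of X was the main difference from the kept peaks. X held 15.9% of the left-out peaks and 22.8% of the kept ones, and its density was 0.883 times that of the autosomes together in the left-out peaks against 1.38 times in the kept. From replicate 2 the ratios were 0.860 and 1.38. In the unshared peaks the ratio was 1.05 in replicate 1 and 0.883 in replicate 2. A ratio below 1 was thus not particular to left-out peaks. Rotation, which used the replicate 1 peaks outside the combined list, gave 0.894. Its range of 0.785 to 0.992 includes the ratio of the left-out peaks. Among the left-out peaks within number 10000 in both lists the ratio was 1.0, and in the rest 0.854. The ratio of observed to rotated counts ran from 1.79 on III and 1.80 on I to 2.26 on V. The sparsest chromosome thus had the highest ratio and the 2 densest the lowest. Rotated means were 633.6 on V, 996.6 on III and 1007.8 on I. Rotation stays within a chromosome, so dense chromosomes gain more rotated overlaps, and this order is in part fixed by density.

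In bins of 500 kb the number of left-out peaks varied widely. The 197 whole bins held 7 to 99 left-out peaks with a median of 47. Across these bins Spearman's rho with the number of combined peaks was 0.30. With the number of replicate 1 peaks, which include the left-out peaks, it was 0.88, and between combined and replicate 1 peaks it was 0.50. The fullest bin was on chromosome III from 10500001 to 11000000, with 99 left-out peaks out of 232 replicate 1 peaks and 12 combined peaks. The next bin on III, from 11000001 to 11500000, held 92 beside 8 combined peaks. The third was on I from 3000001 to 3500000, with 91 beside 4 combined peaks. All of these lay away from the centre, at 78.0%, 81.6% and 21.6% of the length.

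Most left-out shared peaks stood well apart from the combined list. The median gap to the nearest combined peak was 15966 bp (quartiles 5089 and 37944), and 38.3% had one within 10 kb. They were nonetheless closer to it than after rotation, except at the shortest gaps. A combined peak lay within 2 kb of 1298 of them, 13.4%, against a mean of 7.48% (range 6.62% to 8.78%) when the left-out peaks were rotated and those that then overlapped a combined peak were set aside. The unshared peaks of replicate 1 came to 10.3%. In replicate 2 the shares were 12.8% for left-out and 7.74% for unshared peaks. Immediate flanks were a small part, as 299 left-out peaks (3.08%) were within 500 bp of a combined peak and 6 within 50 bp. The rotated mean within 500 bp was 2.14% (range 1.68% to 2.64%). Within 100 bp the order was reversed, with 0.14% of left-out peaks against a rotated mean of 0.45%. Unshared replicate 1 peaks had 0.08% within 100 bp.

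Closeness to the combined list rose with the strength of a peak. In replicate 1, 29.7% of the left-out peaks at numbers 1001 to 2500 were within 2 kb of a combined peak, 19.6% at 2501 to 5000, 15.3% at 5001 to 10000 and 10.5% beyond 20000. Unshared replicate 1 peaks of the same numbers gave 33.3%, 18.9%, 13.1% and 8.19%. In replicate 2 the left-out peaks changed less, from 13.8% at 1001 to 2500 to 11.0% beyond 20000, and the unshared went from 14.4% to 7.12%. The 120 peaks that were within 2299 in replicate 1 and beyond 10000 in replicate 2 were the closest of the subsets compared by rank, with 40.8% within 2 kb. For the 177 with the reverse order it was 14.7%. Per chromosome, the median gap was shortest on X (10297.5 bp), where kept peaks were densest (34.7 per Mb), and longest on V (25127.5 bp). The middle of each chromosome had shorter gaps than the rest, from 9768.5 against 11156.5 bp on X to 10077 against 18864 bp on II.

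**Figure D5:**
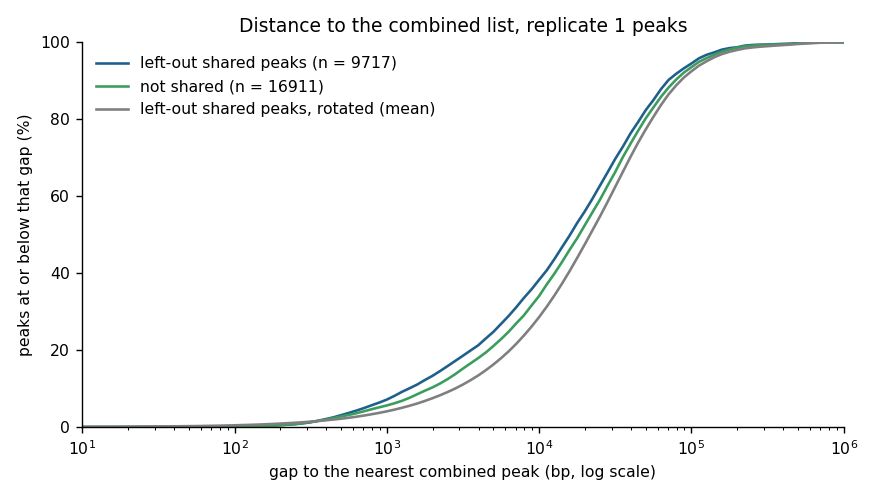
Percentage of replicate 1 peaks (y axis) with a gap to the nearest combined peak at or below a given length (x axis, bp, log scale). The curve of left-out shared peaks lies above those of unshared peaks and of rotated left-out peaks over most of the range, with 38.3%, 34.1% and 28.6% within 10 kb.

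The most remote of the stronger left-out peaks lay in the last 25% of V and IV. Among those within number 5000 in both lists, the one farthest from a combined peak was on V at 17315713 to 17316112. It was 605258 bp away, was peak 3519 in replicate 1 and peak 3196 in replicate 2, and its partner's centre was 4 bp from its own. The second was on V at 16598382 to 16598781 (peaks 3750 and 1982), 242237 bp away with centres 39 bp apart. The third was on IV at 16863357 to 16863756 (peaks 3202 and 1736), 223608 bp away with centres 193 bp apart. Both peaks on V were thus called at nearly the same place by each library, far from any combined peak.

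Left-out peaks also stood beside one another. The same counts were not made for the other classes or after rotation, so grouping is not shown to be particular to left-out peaks. Neighbours on 1 replicate 2 peak enter together, and the 9717 peaks had 8582 distinct partners. Merged where their intervals overlapped, the 9717 peaks made 8555 separate regions, of which 7452 were single peaks, and 1561 peaks (16.1%) overlapped more than 1 replicate 2 peak. Joined at gaps of up to 2 kb they made 6538 groups, 699 of them with at least 3 peaks. The largest group had 11 left-out peaks on chromosome II at 12787384 to 12796540. Its best peak had a weaker number of 8507, and the group was 2729 bp from a combined peak. A group of 9 on V at 2131127 to 2140338 was 3959 bp away. Another of 9, on X at 8389415 to 8395031, was 20775 bp from any combined peak, and one of 8 on I at 9444663 to 9450190 was 22125 bp away.

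No gene, exon or intron is given for these regions, because the annotation at hand is of another genome build than the WS220 build of the lists.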

How the data were processed

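Values were the peak lists that the authors deposited for 2 ChIP libraries and for the combined set. Values of the 2 input libraries were not used. The build is WormBase WS220, and SPP with the irreproducible discovery rate is named as the source of each peak, per the file headers. The sources used here do not give the aligner, versions, thresholds or the making of the combined list. The score of each peak is as the authors deposited it, on an unstated scale, and was compared only within a list. Library depth is unknown, and peak heights carry no interval.

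Overlap needed 1 bp. Chromosome length was taken up to the last peak of any list. The rotation moved the replicate 2 list in steps of 0.1% of each chromosome's length, or 1% in alternatives. Shares carry exact Clopper-Pearson intervals (95%), which cover counting error only. Overlap and gap code was tested on simulated data against bedtools. Rotation code was run on the same simulated data, but its result was not checked against bedtools. Python 3.11.15, numpy 2.4.6, pandas 2.3.3 and scipy 1.17.1 were used.

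The rule, the bins and the comparisons were chosen with earlier results of these data known. Regions named are the 10 left-out shared peaks with the lowest weaker number, the 3 farthest from a combined peak within number 5000 of both lists, the 3 fullest bins of 500 kb and those at the edges of the rule. The largest groups and the weakest kept peak were named after their values were seen. No test was planned on values the rule used. Mitochondrial peaks were left out by the rule.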

Additional observations from a re-analysis of the deposited data

Results flagged for a closer look

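The mitochondrial chromosome lies outside the rule but held peaks that both libraries called and the combined list did not take in. Of its 25 replicate 1 peaks, 21 overlapped a replicate 2 peak, and the combined list held 0 there. No rotation was made for this chromosome, so the level of unrelated overlap among its peaks is not known. All 25 were within number 5000 in replicate 1, as were 22 of 24 in replicate 2. These peaks are therefore strong where the nuclear left-out peaks are mostly weak.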

How the results depend on the processing

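Requiring 50% reciprocal overlap or centres within 200 bp gave equal numbers, 6496 left-out peaks each, with ratios to rotation of 2.62 and 2.61, a median weaker number of 16908.5 and, under the reciprocal overlap, 63.8% of centres within 100 bp, a share that this requirement raises by construction. Limiting both lists to peak numbers 1 to 10000 gave 2070 peaks, a ratio of 3.39, 51.9% in the middle, an X to autosome ratio of 1.04, a median gap of 12594.5 bp, 18.4% within 2 kb, 47.9% of centres within 100 bp and a median weaker number of 6847. The stronger 50% of each list gave 3266 peaks, 2.77, 50.4%, 0.950, 13584 bp, 16.5%, 46.5% and 8724 for the same quantities. The share in the middle was thus above 50% in both stronger parts of the lists, and X was denser than the autosomes in the first and less dense in the second. Counting replicate 2 peaks gave a ratio of 1.97, an X to autosome ratio of 0.860, a median gap of 16356 bp and a median weaker number of 17455. Leaving out peaks within 1 kb of a combined peak gave 0.855 for X and 17648.5 for the weaker number. Shifts of 5 to 50 kb in place of full rotation lowered the ratio to 1.82, and using replicate 2 peaks outside the combined list alone raised it to 2.14. A middle of 33.3% of each chromosome held 28.1%. Centre to centre, the median distance was 16358 bp and 11.3% were within 2 kb. The ratio to rotation stayed above 1 in all 8 alternatives. These are not 8 separate checks. For peaks of 400 and 470 bp, 50% reciprocal overlap and centres within 200 bp are nearly the same requirement. Leaving out a replicate gives no value, as the rule needs both. No paired analysis was possible because only ChIP libraries have peak lists here. With depth unknown, absence from a list is not absence of binding.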
